A study of Homo sapiens with 6 samples.

Results

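BicR and LNCaP prostate cancer cells were compared under the androgen dihydrotestosterone (DHT), which took 2 of the 6 RNA sequencing libraries of the study, 1 per line. The BicR DHT library came from cells called BicR, which the labels describe only as prostate cancer, without saying how the line was derived. The LNCaP DHT library came from LNCaP, an established androgen-responsive line. Both cultures had spent 3 days in RPMI medium free of phenol red and with 2.5% charcoal-treated serum, hence with little steroid, before 24 h of 10 nM DHT. The remaining 4 libraries, BicR and LNCaP under ethanol vehicle and BicR and LNCaP under 1 µM bicalutamide, an antiandrogen, went through the same steroid-poor medium and serve here to show whether a difference was there without androgen. The libraries were chosen by their labels. From 21512 genes, those 13885 were compared whose counts averaged 20 or more in the 6 libraries. Genes near that limit are among the least abundant, with a mean of 20 counts just inside it and 19.8 just outside.

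DHT acts in the nucleus, where its receptor binds DNA at androgen response elements together with pioneer factors such as FOXA1, and changes the transcription of target genes. In prostate epithelium the induced targets include secreted proteases and lipid-synthesis enzymes, while other genes are lowered by androgen. KLK2 and KLK3, neighbouring kallikrein protease genes, are textbook targets with a receptor-binding element shortly before their starts. Their promoters are shown because the 2 genes differed between the lines in opposite directions. The 200 bases before each start, in RefSeq's GRCh38.p14, lie on the plus strand at chr19:50873239-50873438 for KLK2 and chr19:50854715-50854914 for KLK3, and capitals mark matches to the element GAACA, 4 bases of any kind, then GTNC, searched on both strands.
KLK2: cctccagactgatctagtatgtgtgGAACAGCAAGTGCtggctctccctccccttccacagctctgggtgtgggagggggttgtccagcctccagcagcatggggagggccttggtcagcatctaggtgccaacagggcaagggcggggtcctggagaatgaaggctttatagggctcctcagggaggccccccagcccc
KLK3: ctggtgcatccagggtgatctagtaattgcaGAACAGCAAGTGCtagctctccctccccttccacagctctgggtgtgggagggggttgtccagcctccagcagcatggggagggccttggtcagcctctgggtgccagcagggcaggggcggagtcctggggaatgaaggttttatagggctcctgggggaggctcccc
Each window held 1 match, beginning 175 bases before the start in KLK2 and 169 bases before it in KLK3, and 0.487% of 35116 promoter windows of that length held one. Aligned, the windows shared 176 identical bases (85.4% of the alignment), with 18 mismatches and 12 gap positions. The pattern was set for the element of these 2 genes, so a match in both is not a test and the share is no support. A match is a description of the letters and not evidence of binding.

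The libraries were deep: total counts were 42162723 in BicR DHT and 55917016 in LNCaP DHT, the lowest and the highest of the 6. Levels are given as CPM, counts brought to a common library size after TMM scaling, and differences as BicR minus LNCaP on log2(CPM + 1), which understates the change of low genes; "2-fold" means a difference of 1 or more on that scale. Ribosomal protein genes took 3.86% of counts in BicR DHT and 6.42% in LNCaP DHT. With 1 library per line and treatment, a difference has no replicate check, and its 95% interval covers counting error only. In RNA from whole cultures, fewer cells with a transcript and less transcript per cell cannot be told apart. LNCaP ethanol stood apart from the other 5 libraries in genes of mitosis, given with that list, and of the endoplasmic reticulum, with the chaperone gene HSPA5 at 8595 CPM against 1245 to 1645 CPM in the rest. In both DHT libraries the luminal keratin gene KRT8 was abundant, at 1129 CPM in BicR DHT and 924 CPM in LNCaP DHT. Of the 21 basal markers 13 were under the count limit, the defining KRT5, KRT14 and TP63 among them.

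The BicR DHT level was 2-fold or more above the LNCaP DHT level in 390 of the 13885 genes (2.81%) and 2-fold or more below it in 652 (4.70%), with 12843 between. The middle of the distribution was close to 0, with a median of 0.01. At 4-fold the counts were 36 higher and 38 lower, and at 8-fold 8 and 3. In the ethanol pair 364 genes (2.62%) were higher in BicR and 539 (3.88%) lower, and in the bicalutamide pair 95 (0.684%) and 176 (1.27%). Of the 390 genes higher under DHT, 298 were past 2-fold in neither of the other pairs, 46 in 1 and 46 in both. Of the 652 lower ones, 413 were past 2-fold in neither, 177 in 1 and 62 in both.

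**Figure D1:**
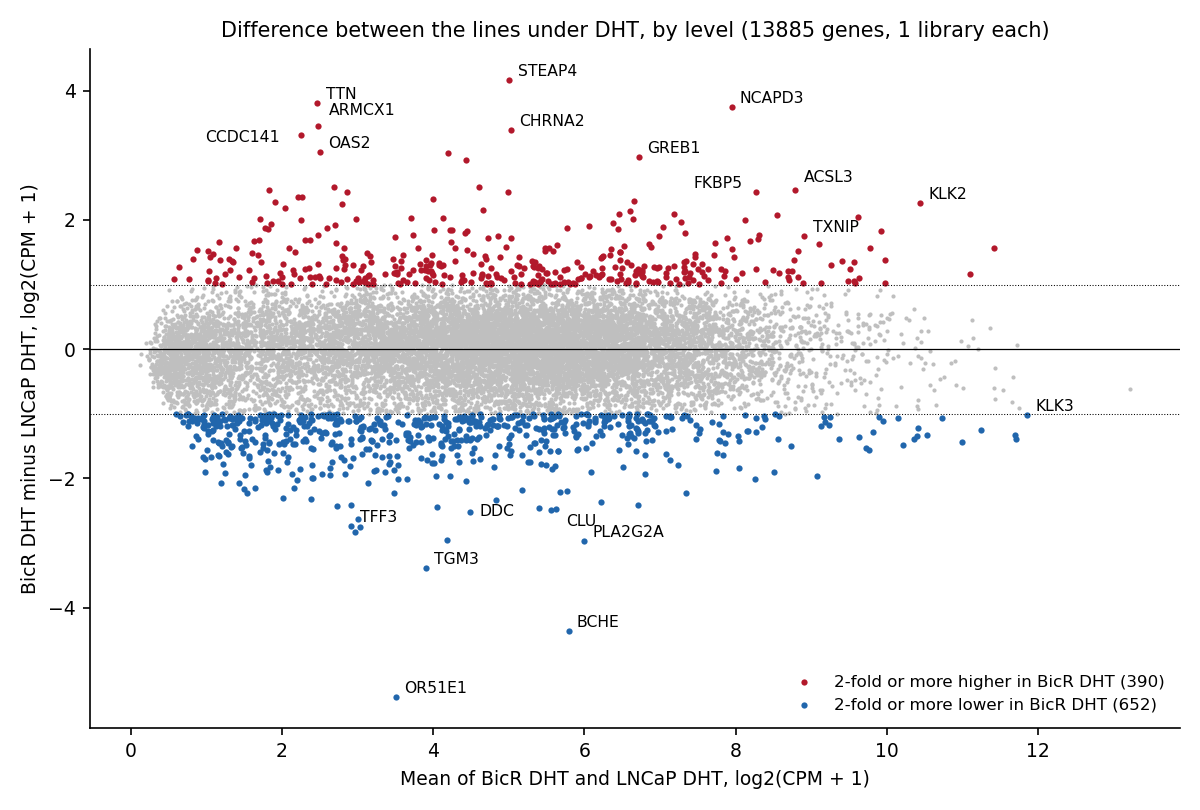
Each point is a gene; the horizontal axis is the mean of the BicR DHT and LNCaP DHT libraries and the vertical axis BicR minus LNCaP, both on log2(CPM + 1), with 1 library each and dotted lines at 2-fold. Red marks the 390 genes higher and blue the 652 genes lower in BicR DHT, with STEAP4 at the top at 4.16 and OR51E1 at the bottom at -5.38.

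A test of this pair was possible only by borrowing the spread from the androgen-free libraries, with ethanol and bicalutamide taken as repeats of a line, which counts any bicalutamide effect as noise. In this edgeR quasi-likelihood fit over 4 groups, with 2 residual degrees of freedom, 0 of 13885 genes passed at an adjusted p of 0.05 (0% called); the lowest adjusted p was 0.0506. Unadjusted, 1482 genes (10.7%) were under 0.05 on the higher side and 1838 (13.2%) on the lower. DESeq2 on the same groups called 495 higher and 686 lower, and limma-trend 91 and 54. The size of the DHT difference relative to the androgen-free difference was tested in the same edgeR fit, where 0 genes passed (lowest adjusted p = 0.258; 740 and 688 genes under 0.05 unadjusted), against 101 and 50 by DESeq2 and 0 and 0 by limma. The edgeR count depended on the libraries: leaving out LNCaP ethanol gave 3969 higher and 4081 lower calls of the DHT difference, leaving out LNCaP bicalutamide 3964 and 4091, leaving out BicR ethanol 97 and 153, and leaving out BicR bicalutamide 96 and 153. For the difference of differences, the calls without LNCaP ethanol were 3120 and 3168 and those without LNCaP bicalutamide 2298 and 2302. The values below are therefore sizes, and "higher" or "lower" describes these libraries.

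A second test asked which genes differed between the lines on average over the 3 treatments. An additive edgeR model of line plus treatment over all 6 libraries called 219 genes higher in BicR (1.58%) and 395 lower (2.84%), and 106 of the 390 and 241 of the 652 genes past 2-fold under DHT were among them. Adjusted p-values given for single genes below are from this model and concern the average line difference over the 3 treatments, DHT included. A pass does not show that the difference was alike in every treatment. The DHT pair that picked the genes is part of the fit, so the overlaps and these p-values are not independent of that choice.

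The difference under DHT followed gene length. Length was read as the counts divided by the authors' RPKM, scaled by the total counts of each library. It serves to rank their gene models by length. Lengths in bases are relative values, since the library sizes behind the RPKM may differ from those totals. Across genes, Spearman's rho between length and the BicR minus LNCaP difference was 0.375 in the DHT pair, 0.235 in the ethanol pair and -0.0433 in the bicalutamide pair. Genes were split into 10 equal groups by length. In the shortest group, with a median length of 1335 bases, the median DHT difference was -0.32, and 12 genes were past 2-fold higher in BicR against 184 lower. In the longest group, at 12143 bases, the median was 0.35, with 123 genes higher and 16 lower. The 390 higher genes had a median length of 7335 bases and the 652 lower ones 2758 bases, against 4386 bases over all genes. After the trend was removed with a local regression, 321 genes (2.31%) were higher and 501 (3.61%) lower, of which 247 and 426 were also past 2-fold before. Whether the trend came from the cells or from the libraries was not tested. Counts and medians of lists with the trend removed are read against 2.31% higher and 3.61% lower, and those as measured against 2.81% higher and 4.70% lower.

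**Figure D2:**
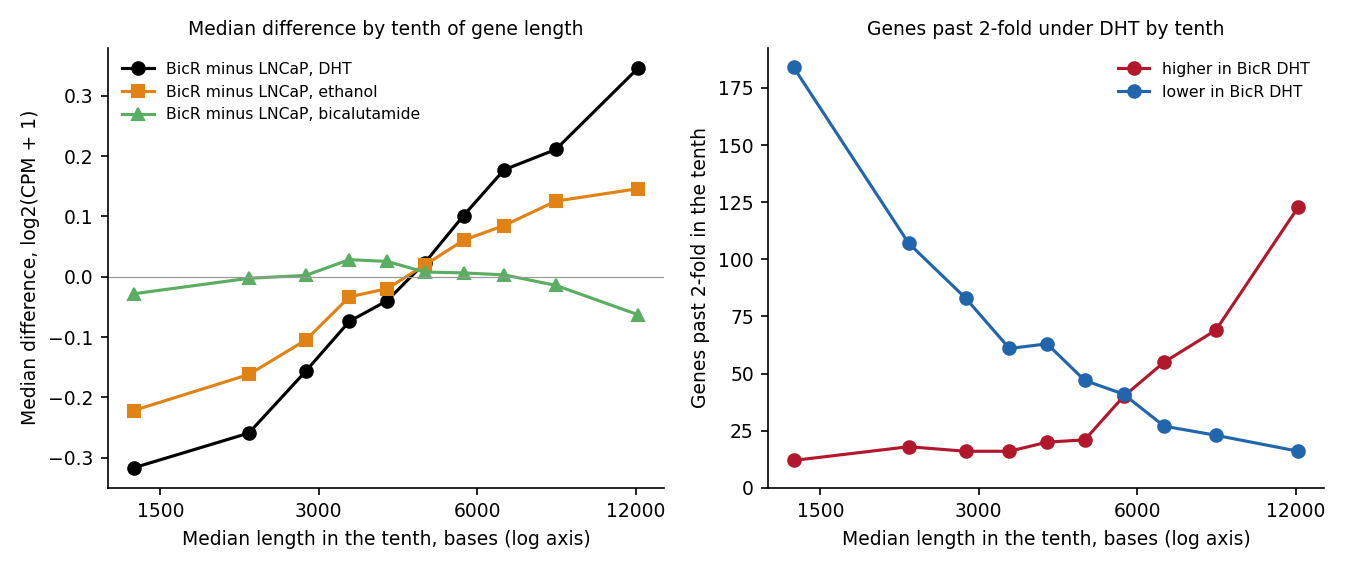
The horizontal axis gives the median relative length in bases of 10 equal groups of genes, on a log axis. The left panel gives the median BicR minus LNCaP difference in the 3 pairs, from -0.32 to 0.35 under DHT, and the right panel the genes past 2-fold under DHT, from 12 higher and 184 lower in the shortest group to 123 and 16 in the longest.

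Among 18 tested genes for steroid receptors, pioneer factors and lineage transcription factors, 4 were 2-fold higher in BicR DHT and 2 lower, with a median of 0.18. Without the length trend 3 were higher and 2 lower, and the median turned to -0.19. FOXA1, the main pioneer factor, stood at 914 CPM in BicR DHT and 808 CPM in LNCaP DHT, a ratio of 1.13 (95% counting interval 1.12 to 1.15). GATA2, which acts with the receptor, had 319.5 CPM in BicR DHT and 607 CPM in LNCaP DHT, and its difference was -0.92 under DHT, 0.21 under ethanol and -0.19 under bicalutamide. HOXB13, a prostate homeobox factor, had 413 CPM in BicR DHT and 691 CPM in LNCaP DHT, with differences of -0.74 under DHT, 0.28 under ethanol and -0.25 under bicalutamide. Both were thus lower in BicR under DHT, short of 2-fold, and slightly higher in BicR under ethanol. The ETS factor genes ETV4 and ELF3 were the members past 2-fold on the lower side. ETV4 had 0.667 CPM in BicR DHT and 4.25 CPM in LNCaP DHT, and ELF3 had 60.2 CPM in BicR DHT and 151 CPM in LNCaP DHT. NR3C1, the glucocorticoid receptor gene, was below the count limit with 3 counts in BicR DHT and 6 in LNCaP DHT, and so was PGR, the progesterone receptor gene, with 1 count in BicR DHT and 8 in LNCaP DHT.

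Of 30 tested receptor coregulators and chaperones, 3 were 2-fold higher in BicR DHT and 0 lower (10.0% and 0%, against 2.81% and 4.70% of all genes), with a median of 0.02. After removal of the length trend 1 was higher and 0 lower, with a median of -0.01. FKBP5, a co-chaperone that is itself a strong androgen target, led at 712 CPM in BicR DHT and 132 CPM in LNCaP DHT. NCOA2, a p160 coactivator, stood at 129 CPM in BicR DHT and 60.3 CPM in LNCaP DHT, a difference of 1.09 that was 0.85 with the length trend removed.

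The list that differed most under DHT was that of androgen-induced genes. Like all the lists, it was chosen with earlier results of these data known, so its share is a description, not independent support. Of 59 tested members, 36 (61%) were at least 2-fold higher in BicR DHT than in LNCaP DHT, against 2.81% of all genes, and 1, KLK3, was 2-fold lower. The median difference was 1.24, against 0.01 for all genes, and 1.22 with the length trend removed. In the ethanol pair the median was 0.15, with 7 members higher and 5 lower, and in the bicalutamide pair 0.02, with 5 and 0. Summed over the list, the level was 27021 CPM in BicR DHT and 14607 CPM in LNCaP DHT, while the 4 androgen-free libraries lay between 6699 CPM (BicR bicalutamide) and 7646 CPM (LNCaP ethanol). The difference between the DHT gap and the androgen-free gap was under an unadjusted p of 0.05 for 39 of the 59 members and passed adjustment for 0 (lowest adjusted p = 0.258).

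STEAP4, a metalloreductase gene, had the highest difference of all genes. It had 5668 counts in BicR DHT and 358 in LNCaP DHT, and 8, 11, 5 and 5 in BicR ethanol, LNCaP ethanol, BicR bicalutamide and LNCaP bicalutamide. Both DHT libraries were far above all 4 others, and the BicR DHT level was 20.5 times the LNCaP DHT level (95% counting interval 18.4 to 22.9). CHRNA2, a nicotinic acetylcholine receptor subunit, stood at 104 CPM in BicR DHT and 9.10 CPM in LNCaP DHT, a ratio of 11.5 (10.5 to 12.6). CCDC141, a gene for a coiled-coil protein, had 588 counts in BicR DHT and 28 in LNCaP DHT, against 1 and 2 counts in BicR ethanol and BicR bicalutamide and 0 in both LNCaP ethanol and LNCaP bicalutamide. TTN, the gene for the sarcomere protein titin, showed a similar pattern, at 19.7 CPM in BicR DHT and 0.479 CPM in LNCaP DHT and at most 0.23 CPM in the 4 others. In RefSeq CCDC141 and TTN both lie on chromosome 2. TTN is on no list and its gene model is very long, so its difference of 3.81 is also given with the trend removed, 2.55.

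Other induced genes were already abundant without androgen. ACSL3, an acyl-CoA synthetase, stood at 1036 CPM in BicR DHT and 188 CPM in LNCaP DHT, while the androgen-free libraries ran from 140.0 CPM (LNCaP ethanol) to 192 CPM (BicR ethanol). The LNCaP DHT level thus lay inside the range of both lines pooled, but above LNCaP ethanol and LNCaP bicalutamide (166 CPM). The BicR DHT level lay above the whole range. NDRG1, an androgen- and stress-responsive gene, stood at 765 CPM in BicR DHT, 181 CPM in LNCaP DHT and 117 to 196 CPM without androgen. Its LNCaP DHT level lay between LNCaP bicalutamide (117 CPM) and LNCaP ethanol (196 CPM). FKBP5, given above under DHT, stood at 56.5 CPM in BicR ethanol and 43.0 CPM in LNCaP ethanol. Here both DHT libraries were above the 4 others. SLC45A3, a prostate transporter known as prostein, had 1593 CPM in BicR DHT and 384 CPM in LNCaP DHT, and here the lines also differed without androgen, by 1.33 under ethanol and 1.39 under bicalutamide (adjusted p = 0.00573). TMPRSS2, a membrane serine protease gene, had 1032 CPM in BicR DHT and 494 CPM in LNCaP DHT, and its difference was 1.06 under DHT, 0.19 under ethanol and 0.03 under bicalutamide. TRPM8, a cold-sensing cation channel of luminal cells, had 25.5 CPM in BicR DHT and 5.49 CPM in LNCaP DHT. Its difference was 2.03 under DHT, 0.55 under ethanol and 0.70 under bicalutamide (adjusted p = 0.0335).

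**Figure D3:**
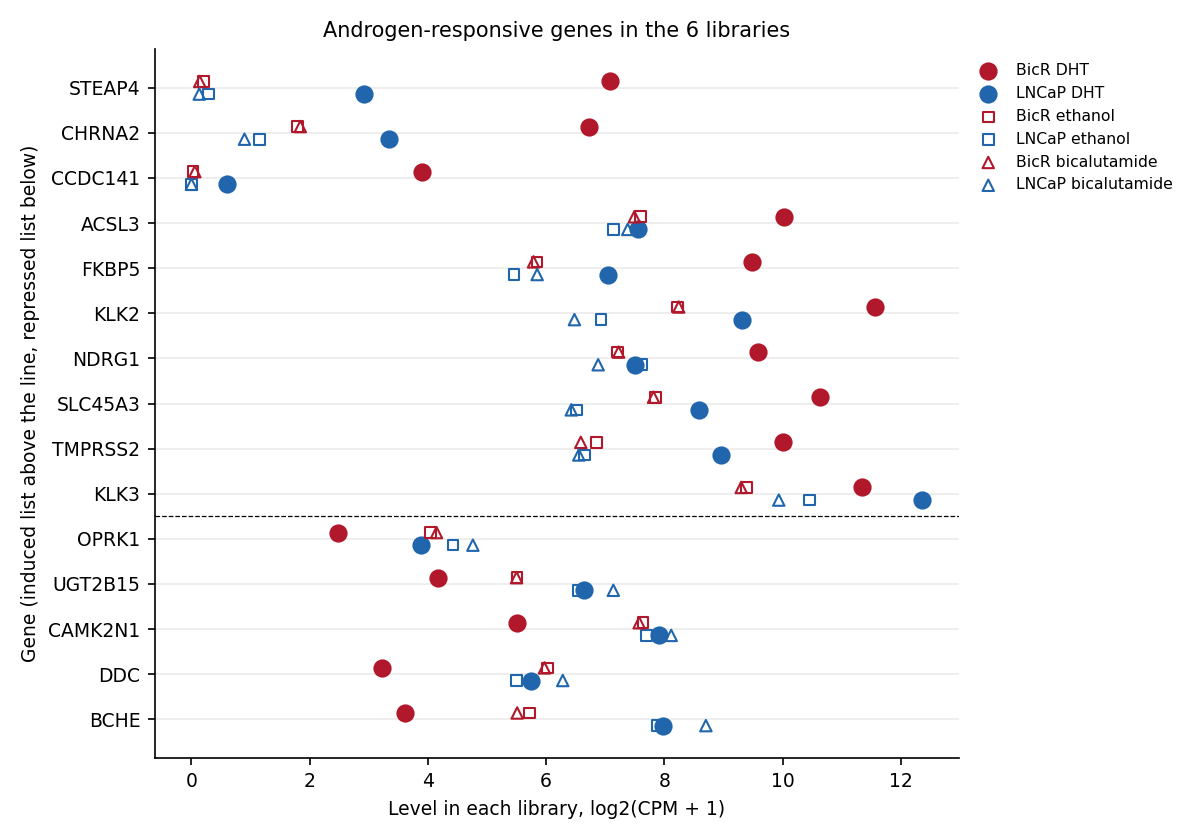
Levels of 15 androgen-responsive genes in each of the 6 libraries, as log2(CPM + 1), with BicR in red and LNCaP in blue, DHT as filled circles, ethanol as squares and bicalutamide as triangles. In the induced group above the dashed line BicR DHT lies to the right of LNCaP DHT in all but KLK3, and in the repressed group below it lies to the left.

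The kallikreins, secreted serine proteases, did not all differ in one direction. KLK2 stood at 3046 CPM in BicR DHT and 636 CPM in LNCaP DHT, a ratio of 4.79 (95% counting interval 4.73 to 4.84). KLK3, which encodes prostate-specific antigen, stood at 2600.5 CPM in BicR DHT and 5257 CPM in LNCaP DHT, a ratio of 0.495 (0.491 to 0.498). These neighbours, whose promoter windows are printed above, thus differed in opposite directions, and they did so without androgen too. The KLK2 difference was 2.26 under DHT, 1.30 under ethanol and 1.76 under bicalutamide, and the KLK3 difference -1.02 under DHT, -1.06 under ethanol and -0.64 under bicalutamide. In the additive model both passed, KLK2 at 1.78 (SE 0.23, adjusted p = 0.00573) and KLK3 at -0.90 (SE 0.21, adjusted p = 0.0479). Per length, by the authors' RPKM, KLK2 was at 691 and KLK3 at 765 in BicR DHT, so the pair was nearly level there, while in LNCaP DHT KLK2 was at 145 and KLK3 at 1553. The genes are near-identical in places and reads could have been shared between them, which makes their split uncertain. How the authors treated such reads is not given in the sources used here. KLK15 was also 2-fold higher, at 22.4 CPM in BicR DHT and 10.4 CPM in LNCaP DHT, and KLK11 lower, at 0.191 CPM in BicR DHT and 1.40 CPM in LNCaP DHT. With the length trend removed the lower genes KLK3 and KLK11 were short of 2-fold, at -0.91 and -0.78, and the median of the 9 tested kallikreins was 0.04, against -0.10 before. KLK4, a prostate kallikrein, differed by 0.69, short of 2-fold, and 6 of the 15 kallikreins were below the count limit.

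Androgen-repressed genes lay on the other side. This list too was chosen with earlier results of these data known, so its share is no independent support. Of 31 tested members, 16 (51.6%) were 2-fold lower in BicR DHT, against 4.70% of all genes, and 1 was higher. The median was -1.06 under DHT (-1.01 with the length trend removed), -0.10 under ethanol and -0.31 under bicalutamide. BCHE, the butyrylcholinesterase gene, stood at 11.2 CPM in BicR DHT and 249.8 CPM in LNCaP DHT, a ratio of 0.045 (95% counting interval 0.0409 to 0.0493). Without androgen BCHE was lower in BicR as well, at 51.6 CPM in BicR ethanol and 236 CPM in LNCaP ethanol, and at 44.6 CPM in BicR bicalutamide and 416 CPM in LNCaP bicalutamide (adjusted p = 0.00419). DDC, the aromatic amino acid decarboxylase gene, had 8.32 CPM in BicR DHT and 52.6 CPM in LNCaP DHT, but 64.2 CPM in BicR ethanol and 44.2 CPM in LNCaP ethanol, and 61.8 CPM in BicR bicalutamide and 76.8 CPM in LNCaP bicalutamide. Its LNCaP DHT level lay inside the androgen-free range and its BicR DHT level far below it.

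CAMK2N1, an inhibitor of calcium/calmodulin kinase named after its values were seen, repeated that pattern, at 44.2 CPM in BicR DHT and 239.7 CPM in LNCaP DHT, with 189.6 to 277 CPM in the 4 other libraries. CBLN2, a cerebellin family gene, had 22.7 CPM in BicR DHT and 109 CPM in LNCaP DHT, and 110.1 to 154 CPM without androgen. SI, which encodes sucrase-isomaltase, was lower in BicR under DHT and higher in BicR under ethanol, at 3.53 CPM in BicR DHT and 11.5 CPM in LNCaP DHT, and at 43.4 CPM in BicR ethanol and 16.0 CPM in LNCaP ethanol. The same was true of ADRA2C, an adrenergic receptor gene outside the list, with differences of -1.67 under DHT, 0.79 under ethanol and 0.53 under bicalutamide. OPRK1, the kappa opioid receptor gene, had 4.55 CPM in BicR DHT and 13.8 CPM in LNCaP DHT. TET2, which encodes a methylcytosine dioxygenase, was not lower: it had 44.4 CPM in BicR DHT and 22.7 CPM in LNCaP DHT, a difference of 0.94, or 0.40 with the length trend removed.

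**Figure D4:**
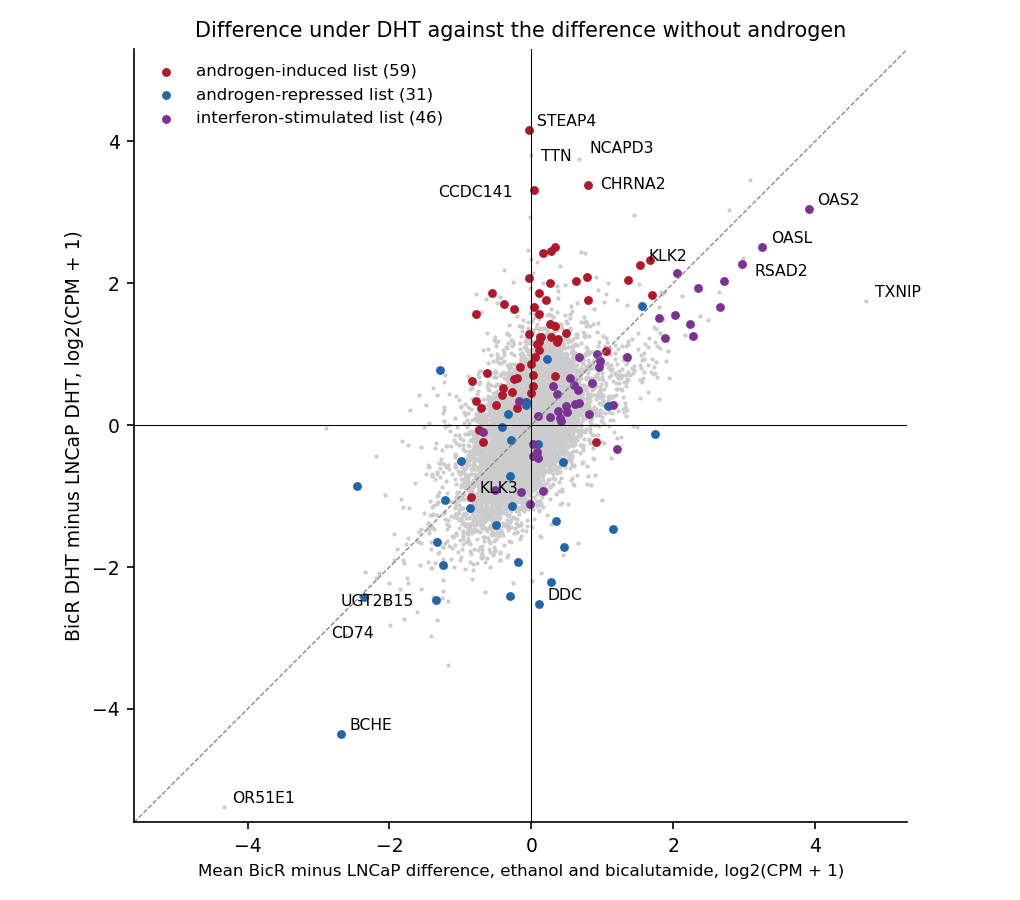
Each point is a gene; the horizontal axis is the mean BicR minus LNCaP difference under ethanol and bicalutamide and the vertical axis the difference under DHT, on log2(CPM + 1), with equality dashed. Induced genes such as STEAP4 lie near 0 on the horizontal axis and far up (4.16), repressed genes such as DDC far down (-2.52), and interferon-stimulated genes such as OAS2 (3.04 under DHT) lie far to the right.

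Several of the highest genes outside the lists were far higher in BicR DHT than in the other 5 libraries. NCAPD3, a condensin subunit gene, stood at 904 CPM in BicR DHT and 66.4 CPM in LNCaP DHT, and at 31.8 CPM (LNCaP ethanol) to 69.7 CPM (BicR ethanol) without androgen. LNCaP DHT was within this range of both lines pooled, but above LNCaP ethanol and LNCaP bicalutamide (56.8 CPM). BicR DHT was above the whole range. TRIM49L, of the tripartite motif family, had 58.9 CPM in BicR DHT and 6.87 CPM in LNCaP DHT, against 1.25 to 3.16 CPM without androgen. It has close copies, so its reads may be shared. SGK1, a kinase gene that is on the induced list, had 14.4 CPM in BicR DHT and 1.71 CPM in LNCaP DHT. Others were higher in BicR in all 3 pairs. ARMCX1, an armadillo-repeat gene, differed by 3.46 under DHT, 2.92 under ethanol and 3.25 under bicalutamide (adjusted p = 0.000276). PASD1, a cancer-testis gene with a PAS domain, differed by 3.03 under DHT, 2.78 under ethanol and 2.79 under bicalutamide (adjusted p = 0.000276). GREB1, a nuclear receptor cofactor first known as an oestrogen target, differed by 2.97 under DHT, 1.69 under ethanol and 1.22 under bicalutamide (adjusted p = 0.0122).

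The lowest genes were mostly lower in BicR without androgen too. OR51E1, an odorant receptor gene of prostate, had 32 counts in BicR DHT and 3944 in LNCaP DHT, a ratio of 0.0105 (95% counting interval 0.00717 to 0.0149). It was at 3.23 CPM in BicR ethanol and 111 CPM in LNCaP ethanol, and at 3.58 CPM in BicR bicalutamide and 69.6 CPM in LNCaP bicalutamide, and passed in the additive model (adjusted p = 0.000568). Its relative OR51E2 had 0.453 CPM in BicR DHT and 4.59 CPM in LNCaP DHT (adjusted p = 0.00125). TGM3, a transglutaminase gene, had 3.62 CPM in BicR DHT and 47.3 CPM in LNCaP DHT, and its difference was -3.39 under DHT, -1.0 under ethanol and -1.34 under bicalutamide. PLA2G2A, a secreted phospholipase, had 21.8 CPM in BicR DHT and 177 CPM in LNCaP DHT, and its difference was -2.97 under DHT, -1.70 under ethanol and -1.13 under bicalutamide. CLU, which encodes the chaperone clusterin, had 19.9 CPM in BicR DHT and 115 CPM in LNCaP DHT, and its difference was -2.48 under DHT, -2.67 under ethanol and -1.40 under bicalutamide. Of these TGM3 had the widest gap between its DHT and ethanol values, and CLU differed about as much under ethanol as under DHT. FAM65B, TLL1 (a tolloid-like protease), PCSK1N (a proprotein convertase inhibitor) and ZNF703 (a transcriptional repressor) completed the 12 lowest, with DHT differences of -2.96, -2.75, -2.63 and -2.48 and ethanol differences of -2.53, -0.95, -2.35 and -1.48.

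TXNIP, a glucose-sensing regulator of thioredoxin, was the gene whose DHT difference fell furthest short of its androgen-free one. It stood at 881 CPM in BicR DHT and 261 CPM in LNCaP DHT, at 922 CPM in BicR ethanol and 12.9 CPM in LNCaP ethanol, and at 1018 CPM in BicR bicalutamide and 95.8 CPM in LNCaP bicalutamide. The 3 BicR libraries lay close together and above every LNCaP library, and among the LNCaP libraries DHT was highest and ethanol lowest (adjusted p = 0.0323 for the lines).

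Steroid enzymes were in part lower in BicR DHT, some that remove active androgens among them. The UGT2B glucuronidation list had 8 tested genes, of which 3 were 2-fold lower and 0 higher. Its median was -0.72 under DHT (-0.60 with the length trend removed), -0.95 under ethanol and -1.13 under bicalutamide. UGT2B15, which conjugates DHT, had 17.1 CPM in BicR DHT and 98.4 CPM in LNCaP DHT, a ratio of 0.173 (95% counting interval 0.16 to 0.188), and was lower in BicR in all 3 pairs (adjusted p = 0.0118). UGT2B17 had 10 counts in BicR DHT and 94 in LNCaP DHT, and did not pass (adjusted p = 0.174). These genes are near-identical and their reads may be shared. Among 21 tested steroid enzymes 1 was higher and 3 lower, with a median of -0.44. Without the length trend 0 were higher and 2 lower, with a median of -0.15, as STS (0.99) and HSD17B6 (-0.86) were then short of 2-fold. The higher one was STS, the steroid sulfatase gene, at 9.87 CPM in BicR DHT and 3.61 CPM in LNCaP DHT. Lower was SULT2B1, a sulfotransferase gene, at 4.62 CPM in BicR DHT and 16.9 CPM in LNCaP DHT. AKR1C2, which reduces DHT, was lower at 46.4 CPM in BicR DHT and 118 CPM in LNCaP DHT, and so was HSD17B6, an oxidative steroid dehydrogenase gene, at 2.19 CPM in BicR DHT and 5.80 CPM in LNCaP DHT. SRD5A1, a steroid 5-alpha-reductase gene, differed by -0.58, and the androgen-forming enzyme genes AKR1C3 and HSD3B1 by -0.48 and -0.01. CYP17A1, for the enzyme that opens androgen synthesis, was below the count limit.

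A set of interferon-stimulated genes was higher in BicR under every treatment. Interferons signal through STAT proteins to the interferon-stimulated response element, and the induced genes act against viral RNA and replication. Of 46 tested members, 13 were at least 2-fold higher in BicR DHT and 1, IFITM3, was lower, with a median of 0.39. After removal of the length trend 13 were higher and 0 lower, with a median of 0.30. In the ethanol pair 18 were higher and 1 lower (median 0.61), and in the bicalutamide pair 16 and 0 (median 0.60). In the additive model 17 members were called higher in BicR and 0 lower, against 1.58% and 2.84% of all genes. OAS2, an oligoadenylate synthetase gene, stood at 15.3 CPM in BicR DHT and 0.976 CPM in LNCaP DHT, at 20.1 CPM in BicR ethanol and 0.3 CPM in LNCaP ethanol, and at 20.3 CPM in BicR bicalutamide and 0.517 CPM in LNCaP bicalutamide. The BicR libraries were all above the LNCaP libraries, and the additive model gave 5.01 (SE 0.38, adjusted p = 0.000585). OASL, a related gene, had 57.2 CPM in BicR DHT and 9.23 CPM in LNCaP DHT (adjusted p = 0.00056).

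Promoters are shown for 3 of the higher members with 1 RefSeq start each, as examples of the element through which the list is known to respond. These 3 genes were named after their values were seen. IFIT1, which binds foreign RNA, had 34.5 CPM in BicR DHT and 7.70 CPM in LNCaP DHT. IFI44L, of unsettled function, had 4.53 CPM in BicR DHT and 0.737 CPM in LNCaP DHT. IFI6, a mitochondrial antiviral protein gene, had 123 CPM in BicR DHT and 44.8 CPM in LNCaP DHT. The 200 bases before each start are printed, from RefSeq's GRCh38.p14: chr10:89392423-89392622 on the plus strand for IFIT1, chr1:78620248-78620447 on the plus strand for IFI44L and chr1:27672193-27672392 on the minus strand for IFI6. Capitals mark matches to the core of GAAA, 2 bases of any kind and GAAA again, searched on both strands.
IFIT1: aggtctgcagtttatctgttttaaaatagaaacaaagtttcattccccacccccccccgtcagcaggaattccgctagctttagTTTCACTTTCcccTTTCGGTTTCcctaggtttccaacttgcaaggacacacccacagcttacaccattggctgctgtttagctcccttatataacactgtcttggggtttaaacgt
IFI44L: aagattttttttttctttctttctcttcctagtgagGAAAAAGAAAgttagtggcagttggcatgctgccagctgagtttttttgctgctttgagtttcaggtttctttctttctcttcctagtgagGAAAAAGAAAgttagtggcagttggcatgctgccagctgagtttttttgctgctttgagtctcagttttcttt
IFI6: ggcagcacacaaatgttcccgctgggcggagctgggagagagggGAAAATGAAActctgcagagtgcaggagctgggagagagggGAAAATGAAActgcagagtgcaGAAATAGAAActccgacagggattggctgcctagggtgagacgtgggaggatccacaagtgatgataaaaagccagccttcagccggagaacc
IFIT1 and IFI44L held 2 matches each, overlapping ones counted, and IFI6 held 3. Of the 13 members past 2-fold, 10 had an entry in the promoter table used here, and 8 of these held the core. Of the 33 other tested members, 26 had an entry and 17 held it. Over all 27305 genes of that table the share was 2.97%. The core was thus common in higher and other members alike, and a match only describes the letters.

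Antigen presentation genes, partly under interferon control as well, lay on the lower side. Of 32 tested genes 0 were 2-fold higher in BicR DHT and 6 lower, with medians of -0.51 under DHT, -0.36 under ethanol and -0.02 under bicalutamide, and -0.33 under DHT with the length trend removed, when 4 were lower. CD74, the invariant chain of MHC class II, had 1.93 CPM in BicR DHT and 19.7 CPM in LNCaP DHT, a ratio of 0.0978 (95% counting interval 0.077 to 0.123). The class II gene HLA-DRA had 5.24 CPM in BicR DHT and 24.2 CPM in LNCaP DHT. Both were lower in BicR in all 3 pairs (adjusted p = 0.00208 and 0.00433). Both are also on the list of immune cell markers, whose 6 tested genes of 23 summed to 21.2 CPM in BicR DHT and 72.5 CPM in LNCaP DHT. The leukocyte marker PTPRC had 0 counts in both, and 6 listed markers had none in either DHT library.

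Lipid synthesis genes, long known as androgen-responsive in prostate cells, were in part higher in BicR DHT. Of 25 cholesterol genes 5 were 2-fold higher and 1 lower, with a median of 0.48, against -0.16 under ethanol and -0.02 under bicalutamide. With the length trend removed 4 were higher and 0 lower, with a median of 0.48. TM7SF2, a sterol reductase gene, was the lower one, at 97.0 CPM in BicR DHT and 201 CPM in LNCaP DHT. Of 25 fatty acid genes 4 were higher and 1 lower (16.0% and 4%, against 2.81% and 4.70% of all genes), with a median of 0.32, or 0.17 with the length trend removed. ACSL3, given above, led them, followed by the elongase gene ELOVL7 at 75.9 CPM in BicR DHT and 24.9 CPM in LNCaP DHT. The ELOVL7 difference was 1.57 under DHT, -0.94 under ethanol and -0.61 under bicalutamide, so it was lower in BicR without androgen. MLXIPL, a glucose-responsive transcription factor gene, was lower, at 1.5 CPM in BicR DHT and 4.01 CPM in LNCaP DHT. ABCA1, a cholesterol exporter, was the one member past 2-fold on the 11-gene efflux list, at 2.65 CPM in BicR DHT and 12.9 CPM in LNCaP DHT.

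Polyamine, amino acid and glycosylation enzymes gave smaller groups. Polyamines are abundant in prostate secretions, and of 19 polyamine genes 4 were higher and 1 lower, with a median of -0.14. Without the length trend 3 were higher and 0 lower, and the median was 0.05. ARG2, a mitochondrial arginase gene, had 179.6 CPM in BicR DHT and 41.5 CPM in LNCaP DHT. SMS, which encodes spermine synthase, had 97.5 CPM in BicR DHT and 44.6 CPM in LNCaP DHT. OAZ2, for an antizyme that restrains polyamine synthesis, was the lower one, at 158 CPM in BicR DHT and 324 CPM in LNCaP DHT, a difference of -1.03 that was -0.88 with the trend removed. Of 33 genes of the ATF4 amino acid response 3 were higher and 0 lower (9.09% and 0%, against 2.81% and 4.70% of all genes). Their median was 0.20 (0.22 with the trend removed), with 21 genes above 0 and 12 below. It was -0.50 under ethanol and 0.08 under bicalutamide. VLDLR, a lipoprotein receptor, led at 39.0 CPM in BicR DHT and 10.6 CPM in LNCaP DHT, before MTHFD2, a mitochondrial folate enzyme, at 633 CPM in BicR DHT and 272 CPM in LNCaP DHT. Among 32 glycosylation genes 4 were higher and 1 lower (12.5% and 3.1%), and the same counts held with the trend removed. Their median was 0.15 (0.07 with the trend removed), with 19 genes above 0 and 13 below. GCNT1, an enzyme that branches O-glycans, had 121 CPM in BicR DHT and 45.0 CPM in LNCaP DHT, and CSGALNACT1, which starts chondroitin chains, had 10.2 CPM in BicR DHT and 3.55 CPM in LNCaP DHT. MAN1A1, a Golgi mannosidase, was the lower one, at 5.65 CPM in BicR DHT and 13.9 CPM in LNCaP DHT.

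The secretory pathway differed between the 3 pairs. Of 39 endoplasmic reticulum genes 3 were 2-fold higher in BicR DHT and 1 lower (7.69% and 2.56%, against 2.81% and 4.70% of all genes), with a median of 0.29. After removal of the length trend 2 were higher and 1 lower, with a median of 0.27. Under ethanol the median was -1.07, with 0 higher and 20 lower, and under bicalutamide -0.06. HSPA5, the chaperone BiP, stood at 1645 CPM in BicR DHT and 1347 CPM in LNCaP DHT, but at 1245 CPM in BicR ethanol and 8595 CPM in LNCaP ethanol, so that the ethanol value rests on the LNCaP ethanol library that stood apart. Under bicalutamide it stood at 1274 CPM in BicR bicalutamide and 1435 CPM in LNCaP bicalutamide. CREB3L4, an androgen-induced transcription factor of the membrane-bound CREB3 family, had 211 CPM in BicR DHT and 88.3 CPM in LNCaP DHT. ERN1, which encodes the stress sensor IRE1-alpha, had 163 CPM in BicR DHT and 71.0 CPM in LNCaP DHT. CREB3L1, of the CREB3 family too, had 9 counts in BicR DHT and 196 in LNCaP DHT (adjusted p = 0.00181), the opposite direction.

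Mitotic genes were on the higher side in BicR. Of 43 genes 7 were 2-fold higher in BicR DHT and 0 lower, with a median of 0.68 (0.73 with the length trend removed), against medians of 2.16 under ethanol and 0.55 under bicalutamide. The ethanol median rests on LNCaP ethanol, whose summed mitosis level was 247 CPM, against 753 CPM (LNCaP bicalutamide) to 1338 CPM (BicR DHT) in the other 5 libraries. MKI67, the proliferation marker, had 104 CPM in BicR DHT and 27.5 CPM in LNCaP DHT, 97.0 CPM in BicR ethanol and 12.7 CPM in LNCaP ethanol, and 85.1 CPM in BicR bicalutamide and 44.0 CPM in LNCaP bicalutamide. Every BicR library was above every LNCaP library. KIF4A, a chromokinesin, had 23.2 CPM in BicR DHT and 8.32 CPM in LNCaP DHT. In the additive model 9 mitosis genes were called higher in BicR and 0 lower, against 1.58% and 2.84% of all genes. Of 46 replication genes 0 were past 2-fold in either direction under DHT, with a median of 0.04. Of 40 repair genes 1 was higher (2.50%, against 2.81% of all genes), a share near that of all genes, and 0 were lower. The higher one was PRKDC, a kinase of end joining, at 665 CPM in BicR DHT and 306 CPM in LNCaP DHT. Its difference of 1.12 was 0.62 with the length trend removed.

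Some inhibitors of the cell cycle and p53 targets were among the lower genes. CDKN1A, the p21 gene, had 183 CPM in BicR DHT and 443 CPM in LNCaP DHT and was lower in BicR in all 3 pairs (adjusted p = 0.0261). CDKN2A, another inhibitor gene, had 15 CPM in BicR DHT and 32.0 CPM in LNCaP DHT. Its difference was -1.04 under DHT, 0.07 under ethanol and 0.47 under bicalutamide, so it was not lower in BicR without androgen. CDKN1A and CDKN2A were the 2 of 31 G1 genes past 2-fold (6.45%, against 4.70% of all genes), a share near that of all genes. The list median was -0.09. With the length trend removed 1 of them was past it, against 3.61% of all genes on the lower side. MYC, a growth-promoting transcription factor gene, had 338 CPM in BicR DHT and 387 CPM in LNCaP DHT, a difference of -0.19. Of 32 p53 targets 4 were lower and 0 higher (12.5% and 0%, against 4.70% and 2.81% of all genes), with a median of 0.05. With the length trend removed 4 were lower and 1 was higher, and the median was -0.13. BBC3, which encodes the pro-apoptotic PUMA, led at 8.53 CPM in BicR DHT and 30.3 CPM in LNCaP DHT (adjusted p = 0.0137). PHLDA3, an inhibitor of AKT, followed at 18 CPM in BicR DHT and 55.4 CPM in LNCaP DHT (adjusted p = 0.0219). In the additive model 4 of the list were called lower and 1 higher, against 2.84% and 1.58% of all genes.

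Ribosomal and respiratory chain genes, which are short, lay on the lower side in BicR DHT. Of 76 ribosomal protein genes 23 were 2-fold lower and 0 higher, with a median of -0.69. Without the length trend 10 were lower, 1 was higher and the median was -0.36. As measured, the median was -0.51 under ethanol and -0.04 under bicalutamide. The ribosomal protein share of counts was 6.42% in LNCaP DHT and 5.82% in LNCaP ethanol, but 3.97% in LNCaP bicalutamide. In BicR it was 3.86% under DHT, 4.10% under ethanol and 3.95% under bicalutamide. RPS19, of the small subunit, had 80.5 CPM in BicR DHT and 280.4 CPM in LNCaP DHT, and RPL13, of the large one, had 506 CPM in BicR DHT and 1496 CPM in LNCaP DHT. Such genes have many processed copies that may share reads. Of 62 respiratory chain genes 16 were lower and 0 higher, with a median of -0.60, and with the trend removed 3 were lower and the median was -0.35. As measured, their median was -0.34 under ethanol and -0.11 under bicalutamide. NDUFA13, a complex I subunit, had 22.2 CPM in BicR DHT and 78.9 CPM in LNCaP DHT, and NDUFA1, another, had 17.4 CPM in BicR DHT and 52.3 CPM in LNCaP DHT. The median relative length was 1099 bases for the ribosomal and 1322 bases for the respiratory list, against 4386 bases for all genes. Beyond that removal the part of length in these differences was not tested.

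Glycolytic and hypoxia genes were found on both sides, with a median of -0.28. Of 38 tested, 3 were higher and 6 lower, and 2 and 5 with the length trend removed. SLC2A3, a glucose transporter, was higher, at 7.37 CPM in BicR DHT and 0.516 CPM in LNCaP DHT, and so was NDRG1, given above. The lactate exporter gene SLC16A3 was lower, at 2.05 CPM in BicR DHT and 7.15 CPM in LNCaP DHT. GAPDH, a glycolytic enzyme, had 1565 CPM in BicR DHT and 3744 CPM in LNCaP DHT, and its difference of -1.26 was -0.99 with the length trend removed. Of 25 cytosolic heat shock genes 2 were lower and 0 higher. Both were small chaperones, HSPB1 at 152 CPM in BicR DHT and 612 CPM in LNCaP DHT and HSPB8 at 7.29 CPM in BicR DHT and 21.6 CPM in LNCaP DHT. Among 28 efflux and detoxification genes 2 were higher and 7 lower, and with the length trend removed 1 and 2. ABCC4, a transporter induced by androgen, was higher, at 565 CPM in BicR DHT and 173 CPM in LNCaP DHT, and its relative ABCC1 had 374 CPM in BicR DHT and 177 CPM in LNCaP DHT. The aldehyde dehydrogenase gene ALDH3A1 was lower, at 0.381 CPM in BicR DHT and 2.89 CPM in LNCaP DHT, and so was the metallothionein gene MT2A, at 57.9 CPM in BicR DHT and 152 CPM in LNCaP DHT. ABCB1, the P-glycoprotein gene, was below the count limit with 3 counts in BicR DHT and 9 in LNCaP DHT.

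**Figure D5:**
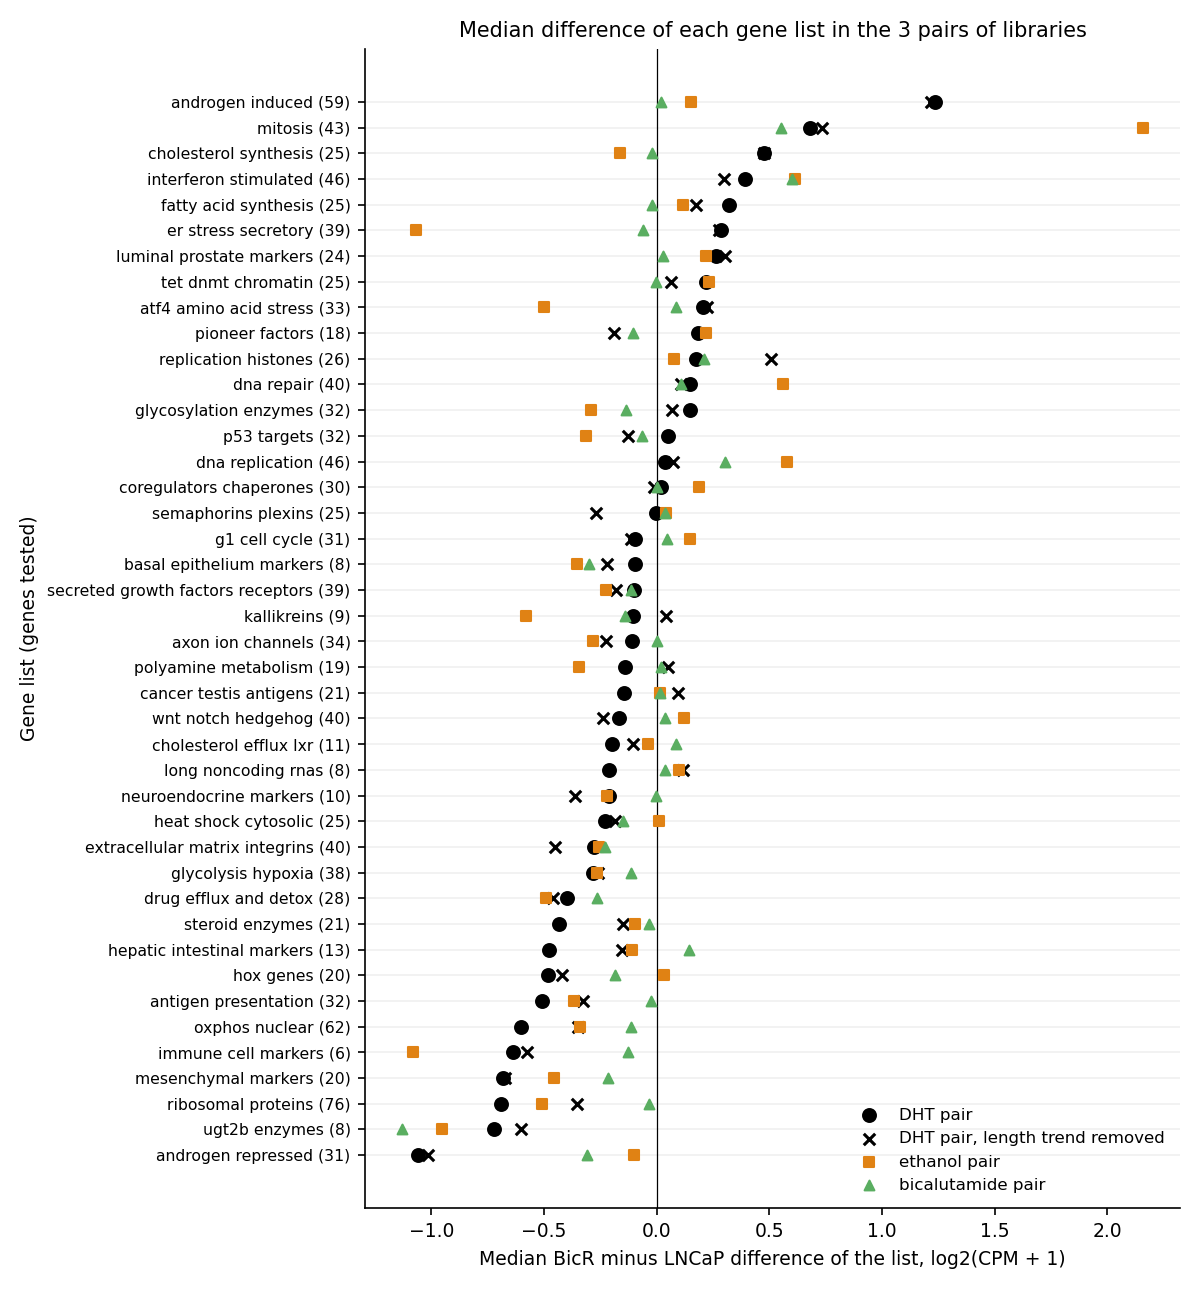
The horizontal axis gives the median BicR minus LNCaP difference on log2(CPM + 1) of each gene list with at least 5 tested genes, with black circles for the DHT pair, black crosses for the DHT pair with the length trend removed, orange squares for ethanol and green triangles for bicalutamide. The androgen-induced list has the highest DHT median (1.24) and the androgen-repressed list the lowest (-1.06), while the mitosis list is highest in the ethanol pair (2.16), where it rests on the LNCaP ethanol library.

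Most markers of other cell types were under the count limit or differed by less than 2-fold. Of the 24 tested luminal markers 8 were higher in BicR DHT, 7 of them also on the androgen-induced list, and 2, KLK3 and HPN, lower, both short of 2-fold with the length trend removed. TARP, read in prostate cells from a T cell receptor locus, led at 34.8 CPM in BicR DHT and 6.15 CPM in LNCaP DHT (adjusted p = 0.000766). FOLH1, which encodes prostate-specific membrane antigen, differed by -0.37. Of 30 neuroendocrine markers 10 were tested and 1, SYT4, a synaptotagmin gene, was past 2-fold, at 709 CPM in BicR DHT and 1980.5 CPM in LNCaP DHT. The neuroendocrine granule gene CHGA had 2 counts in BicR DHT and 1 in LNCaP DHT, and the enolase gene ENO2 differed by -0.74. Of the basal markers LAMB3, a laminin gene, was lower, at 8.99 CPM in BicR DHT and 21.3 CPM in LNCaP DHT, and so was NGFR, a neurotrophin receptor gene, at 0.811 CPM in BicR DHT and 2.91 CPM in LNCaP DHT. Summed over the 8 tested basal markers the level was 227 CPM in BicR DHT and 187 CPM in LNCaP DHT. Over the 3 tested endothelial markers of 15 it was 34.9 CPM in BicR DHT and 68.3 CPM in LNCaP DHT, and the endothelial cadherin gene CDH5 had 0 counts in both. Of 27 hepatic and intestinal markers 13 were tested, of which 1 was higher and 3 lower, also with the length trend removed. Their median was -0.48 (-0.15 with the trend removed). TFF3, a trefoil factor, was lower, at 1.93 CPM in BicR DHT and 18.5 CPM in LNCaP DHT. ALB, the albumin gene, was the higher one, with 49 counts in BicR DHT and 1 in LNCaP DHT, a ratio of 63.4 (95% counting interval 10.9 to 2556). It had 42 counts in BicR ethanol and 1 in LNCaP ethanol, and 37 in BicR bicalutamide and 2 in LNCaP bicalutamide.

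Mesenchymal and matrix genes were on balance lower in BicR. Of 20 tested mesenchymal markers of 30, 4 were 2-fold lower in BicR DHT and 2 higher, with a median of -0.68, the same to 2 decimals with the length trend removed, when 4 were lower and 1 higher. The mesenchymal cadherin gene CDH2 had 0 counts in both DHT libraries. SNAI2, a transcription factor of the epithelial-mesenchymal transition, was the highest, at 14.1 CPM in BicR DHT and 2.17 CPM in LNCaP DHT, and had 0.806 CPM in BicR ethanol and 0.68 CPM in LNCaP ethanol. The collagen gene COL5A1 was the lowest, at 8.80 CPM in BicR DHT and 29.8 CPM in LNCaP DHT (adjusted p = 0.00393). Of 40 matrix and integrin genes 3 were higher and 8 lower, and 2 and 9 with the length trend removed. ITGAV, an integrin subunit, had 203 CPM in BicR DHT and 66.7 CPM in LNCaP DHT, and SPOCK1, a proteoglycan, had 13.4 CPM in BicR DHT and 4.64 CPM in LNCaP DHT. COL9A2, a collagen gene, was among the lower ones, at 2.86 CPM in BicR DHT and 9.45 CPM in LNCaP DHT. In the additive model 7 of this list were called lower and 0 higher, against 2.84% and 1.58% of all genes.

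Growth factor and developmental signalling genes differed one by one. Of 39 growth factor genes 2 were higher and 4 lower (5.13% and 10.3%, against 2.81% and 4.70% of all genes), and 2 and 3 with the length trend removed. IGF1R, the insulin-like growth factor receptor gene, had 159 CPM in BicR DHT and 52.0 CPM in LNCaP DHT, with differences of 1.59 under DHT, -0.42 under ethanol and -1.0 under bicalutamide, so it was lower in BicR without androgen. TGFBR2, a transforming growth factor receptor gene, had 79 counts in BicR DHT and 5 in LNCaP DHT (adjusted p = 0.0468). TGFB1, which encodes a ligand of that receptor, was lower, with 12 counts in BicR DHT and 106 in LNCaP DHT, and so was the receptor kinase gene RET, with 16 counts in BicR DHT and 124 in LNCaP DHT. ERBB2 differed by -0.12. Of 40 Wnt, Notch and hedgehog genes 2 were higher and 1 lower (5% and 2.50%, against 2.81% and 4.70% of all genes), and 1 and 3 with the trend removed. FZD5, a Wnt receptor, had 86.4 CPM in BicR DHT and 27.6 CPM in LNCaP DHT, and JAG1, a Notch ligand, had 112 CPM in BicR DHT and 49.4 CPM in LNCaP DHT. SFRP1, a secreted Wnt antagonist, was lower, with 7 counts in BicR DHT and 74 in LNCaP DHT.

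Among developmental families, 3 of 25 semaphorin and plexin genes, guidance ligands and their receptors, were lower and 0 higher. SEMA6D led with 1 count in BicR DHT and 154 in LNCaP DHT, a ratio of 0.00841 (95% counting interval 0.000211 to 0.0475), and was lower in BicR in all 3 pairs (adjusted p = 0.002). Of 20 HOX genes 5 were lower and 0 higher, and with the length trend removed 1 was lower. HOXC9 led at 4.17 CPM in BicR DHT and 23.2 CPM in LNCaP DHT. Among 34 channels and receptors 6 were higher, CHRNA2 and TRPM8 first, and 3 lower, the OR51E pair among them, and 5 and 5 with the trend removed. Of 25 chromatin genes 3 were higher, and 0 with the trend removed. They included the methyltransferase genes MLL3 and MLL2, which differed by 1.14 and 1.04, and by 0.56 and 0.41 with the length trend removed. KCNQ1OT1, a long noncoding RNA, differed by 1.08, and by 0.04 with the trend removed. Of 26 histone genes 1, HIST1H1E, was higher and 3 lower (3.85% and 11.5%, against 2.81% and 4.70% of all genes). With the trend removed 3 were higher and 0 lower. Of 21 cancer-testis genes 1 was lower (4.76%, against 4.70% of all genes), a share near that of all genes, and 0 were higher. The lower one was MAGEA4, at 4.17 CPM in BicR DHT and 12.5 CPM in LNCaP DHT (adjusted p = 0.00419). With the trend removed 1 cancer-testis gene was higher and 1 lower. Histone and MAGE genes have near-identical copies that may share reads.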

How the data were processed

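Per the labels, total RNA of 6 samples was sequenced on the SOLiD platform. The authors deposited 1 table per gene symbol with raw counts and, beside them, RPKM, which divides by gene-model length and library size. The build is hg19, per the submitters' processing notes. Aligner, counting tool and strand setting: not given in the sources used here. From the deposited counts, genes averaging 20 counts or more were kept and CPM computed after TMM scaling (edgeR 4.0.16, R 4.3.3). Differences are on log2(CPM + 1), with a pseudocount of 1 CPM, and a call is 2-fold. Ratios carry exact conditional 95% intervals, which cover counting error only. They rest on the counts as deposited, with no floor applied, also where a count was very low. For scale, 3 counts equal 0.0715 CPM in BicR DHT and 0.0552 CPM in LNCaP DHT. Nothing says that libraries came from separate cultures. The borrowed-spread and additive tests used edgeR's quasi-likelihood test with Benjamini-Hochberg adjustment over 13885 genes at 0.05. The RPKM deposited by the authors served for gene length, for levels between genes and as an alternative. The length trend was a loess curve (span 0.5). DESeq2 1.42.0 and limma 3.58.1 were alternatives, as were other scalings, pseudocounts and filters. The code was tested on simulated data.

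The members and the 43 gene lists were chosen with earlier results of these data known. Genes were named by rule: the 12 highest and 12 lowest differences, the 6 highest and 6 lowest among genes with 50 CPM or more, the 5 highest and 5 lowest DHT differences less the mean of the other pairs, the 2 highest and 2 lowest past 2-fold on each list, and 34 fixed genes. OPRK1 had been entered by mistake on both androgen lists and was kept only on the repressed one after its values were seen. Defining markers of cell types and CYP17A1 were named beside these. The 27 rows with date-like names were not named. Some genes of the rule are not reported here.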

Additional observations from a re-analysis of the deposited data

How the results depend on the processing

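The counts of genes past 2-fold depended most on the pseudocount and the unit. With a pseudocount of 5 CPM, 231 genes were higher and 314 lower in BicR DHT, with the authors' RPKM 191 and 417, and with a pseudocount of 0.1 CPM 1087 were lower, against 390 and 652 as reported; the construction of the scale shows why, since a larger pseudocount shrinks low genes. Under the other scalings, filters and trend removals the counts stayed within 1.5 times. Tests with the borrowed spread called 0 and 0 genes as reported, 495 higher and 686 lower by DESeq2, 91 and 54 by limma-trend, 91 and 88 with no filter on low counts, and 219 and 395 in the additive model. Leaving out 1 androgen-free library gave 96 to 3969 higher and 153 to 4091 lower calls; the lone library left is then assumed to vary like the other line's. For the DHT difference less the androgen-free one, DESeq2 called 101 and 50, and leaving out 1 androgen-free library gave 0 to 3120 higher and 0 to 3168 lower calls. The cause of these shifts was not tested. Of 462 medians of lists under alternatives 385 moved little and 77 moved; the androgen-induced median ranged from 1.14 to 1.27 and the androgen-repressed one from -1.24 to -0.64. Medians of 10 lists changed sign under an alternative. With the length trend removed the receptor and pioneer factor median was -0.19 against 0.18 as reported, coregulators -0.01 against 0.02, p53 targets -0.13 against 0.05, polyamine genes 0.05 against -0.14, cancer-testis genes 0.09 against -0.14 and long noncoding RNAs 0.12 against -0.21. The kallikrein median of -0.10 was 0.04 without the length trend, 0.05 without the level trend and 0.85 at a mean of 200 counts, where the basal (0.06 against -0.10) and channel (0.10 against -0.11) medians turned too. The semaphorin and plexin median changed sign with the scaling, between -0.02 and 0.02, as did HSD3B1 with a trend removed. TMM over the 2 DHT libraries alone was chosen after seeing the data. No paired analysis was possible because each line and treatment had 1 library, so that no replicate numbers pair samples; the lines are paired by treatment only in the additive model above. With 1 library per group, depth limits only the counting error, and the spread between cultures of a group is unknown.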
